A study of Mus musculus with 31 samples.

Results

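Cancer cells recovered from peritoneal tumours were set against cancer cells recovered from subcutaneous tumours of one mouse mesothelioma line. The tumours grew from AB1-mCherry cells, a line of murine mesothelioma that carries a red fluorescent protein, of which the brightest 5% had been sorted and cultured before use. Untreated female BALB/c mice aged 12 weeks bore the tumours, and samples were taken on day 10 after inoculation. Cells negative for CD45 (the pan-leukocyte surface protein) and positive for mCherry were sorted, and their RNA was sequenced. The comparison uses all 10 sorted libraries of these sites, 5 peritoneal and 5 subcutaneous, of 31 libraries in the series. Another 5 sorted libraries from pleural tumours entered the same fit and are shown beside them, and whole tumours (5 peritoneal and 5 subcutaneous libraries) are given where they bear on a result. Every group carries the same line, strain, age and day, and all of them come from the 1 line, so the spread between libraries is that between tumours of this model. The labels give each sorted library a mouse number of its own.

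Mesothelioma arises from the mesothelium, the flat cell layer that lines the peritoneal and pleural cavities and covers the organs in them. Under the skin the same cells grow in connective tissue, where fibroblasts lay down collagens and matricellular proteins, secreted proteins that bind both matrix and cell receptors and are strongly made in wounds and tumour stroma. Immediate early genes are transcribed within minutes of growth factor or stress signals through MAP kinases, and the sterol pathway is switched on by SREBP2 when membrane cholesterol is low.

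Expression is in TPM, a transcript abundance scaled for transcript length and library size, and differences are on the log2(TPM + 1) scale, which understates the change of genes with low levels. All differences are peritoneal minus subcutaneous unless another pair is named, and a call is an adjusted p under 0.05 in limma over all genes. Library sums were 996124 to 998055 TPM, and read depth is unknown. Peritoneal libraries correlated with each other at 0.957 to 0.988, and subcutaneous libraries at 0.967 to 0.988. The first principal component held 33.4% of the variance and set peritoneal libraries 2 and 5 (scores 46.7 and 57.4) apart from the rest, with subcutaneous library 1 at -44.4. Peritoneal libraries 2 and 5 also had the lowest median level over tested genes, 13.7 and 12.35 TPM. The other sorted libraries had medians of 14.47 to 18.37 TPM. Subcutaneous libraries 1 and 2 also stood apart in leukocyte genes: summed macrophage markers reached 1886 and 1265 TPM there, against 46.2 to 310.4 TPM in the other subcutaneous libraries, while peritoneal libraries had 60.0 to 178 TPM. Despite the CD45-negative gate, Ptprc, which encodes CD45, was at 12.9 and 7.48 TPM in those libraries, and at 0.233 to 0.946 TPM in the peritoneal ones. Of the mesothelial markers, Msln and Efemp1 were abundant in every library, while Wt1 and Krt19 were not among the entries of the sorted cell table.

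Of 12357 genes tested, 1369 were called (11.1%). Peritoneal cells had the higher level for 587 genes (4.75%) and the lower level for 782 genes (6.33%), and the median difference over all genes was -0.03. At a change of at least 2-fold the balance was less even, with 36 genes higher (0.291%) and 281 lower (2.27%). The groups did not overlap for 1171 genes (9.48%), 548 of them higher (4.43%) and 623 lower (5.04%) in peritoneal cells. Without peritoneal library 2 the count of calls fell to 758, without subcutaneous library 1 to 843, without subcutaneous library 5 to 787, and without peritoneal libraries 2 and 5 to 739, of which 405 were higher and 334 lower. In the comparison with pleural cells, which uses the same peritoneal libraries, 1231 genes were called (9.96%), 681 higher (5.51%) and 550 lower (4.45%) in peritoneal cells. In the comparison with subcutaneous cells the split between directions depended on the processing as well: quantile normalization gave 1525 higher and 961 lower, array weights gave 851 higher and 751 lower, and rescaling without mitochondrial transcripts gave 422 higher and 905 lower. Of the 782 lower genes, 21 reached 1 TPM in subcutaneous libraries alone, so they could pass the filter only by being high there. The plot of gene lists shows where the calls fell.

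**Figure D1:**
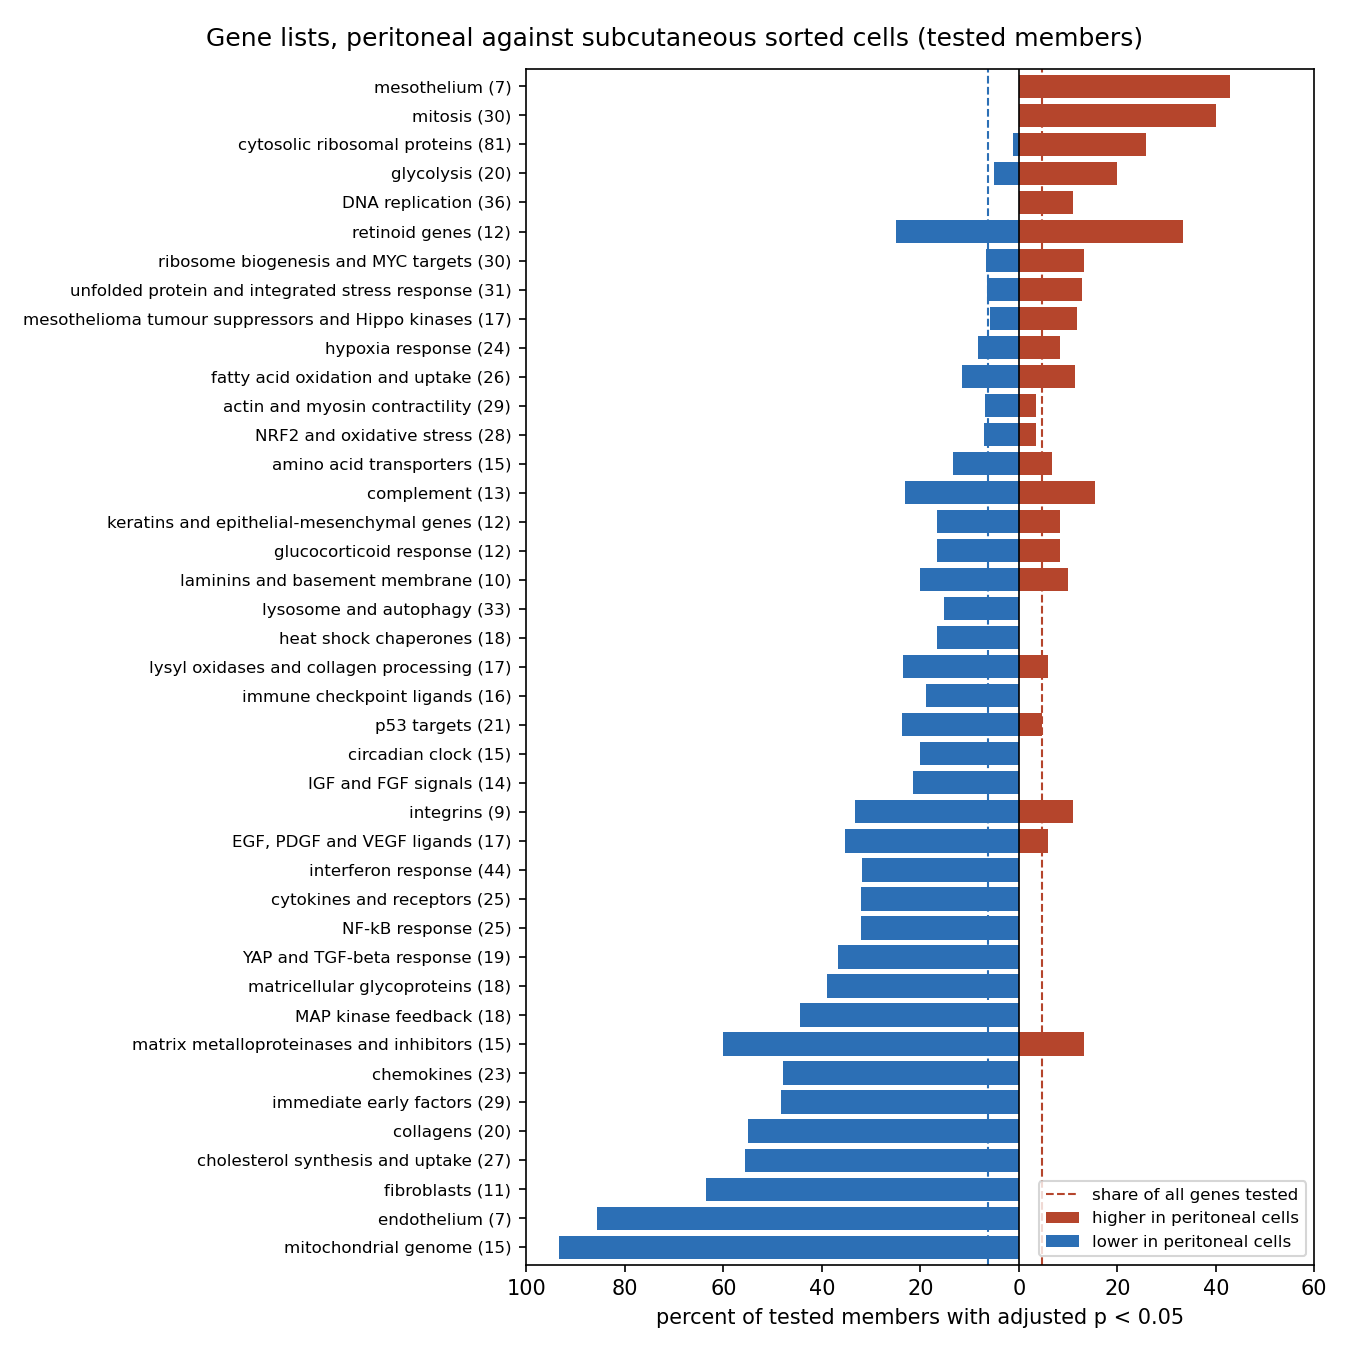
Gene lists with at least 3 called genes, peritoneal against subcutaneous sorted cells: bars give the percent of tested members higher (right) or lower (left) at an adjusted p under 0.05, the number tested is in brackets, and dashed lines mark the shares of all genes tested (4.75% higher, 6.33% lower). The mitochondrial genome (93.3% lower) stands at the bottom, and mesothelial markers (42.9% higher) and mitosis genes (40% higher) at the top.

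Postn and Tnc, which encode matricellular proteins, had the largest differences among called genes, and both were scarce in peritoneal cells and abundant in subcutaneous cells. Postn encodes periostin, a matricellular protein of wounds and tumour stroma. It had 1.00, 0.398, 3.08, 0.843 and 0.183 TPM in peritoneal libraries 1 to 5, against 157, 63.6, 77.8, 85.5 and 77.1 TPM in subcutaneous libraries 1 to 5. The lowest subcutaneous library lay far above the highest peritoneal one, and the difference was -5.54 ± 0.34 (SE, adjusted p = 1.9e-07). Tnc, tenascin C, an anti-adhesive glycoprotein of remodelling matrix, had 1.76, 0.198, 1.92, 0.613 and 0.346 TPM in peritoneal libraries, against 94.5, 41, 51.5, 56.5 and 41.2 TPM in subcutaneous libraries. Its groups were as clearly separate, at -4.91 ± 0.29 (SE, adjusted p = 1.9e-07). Cilp, a cartilage and fibrous tissue matrix protein, averaged 0.367 ± 0.166 TPM in peritoneal and 18.6 ± 9.67 TPM in subcutaneous cells (SD, n = 5 each), a difference of -3.73 ± 0.24 (SE, adjusted p = 1.9e-07). Pleural values are given beside them. Postn was at 0.422 to 2.62 TPM and Tnc at 0.538 to 1.81 TPM, and peritoneal minus pleural differences were -0.25 ± 0.34 (SE, adjusted p = 0.67) for Postn and -0.14 ± 0.29 (SE, adjusted p = 0.78) for Tnc.

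**Figure D2:**
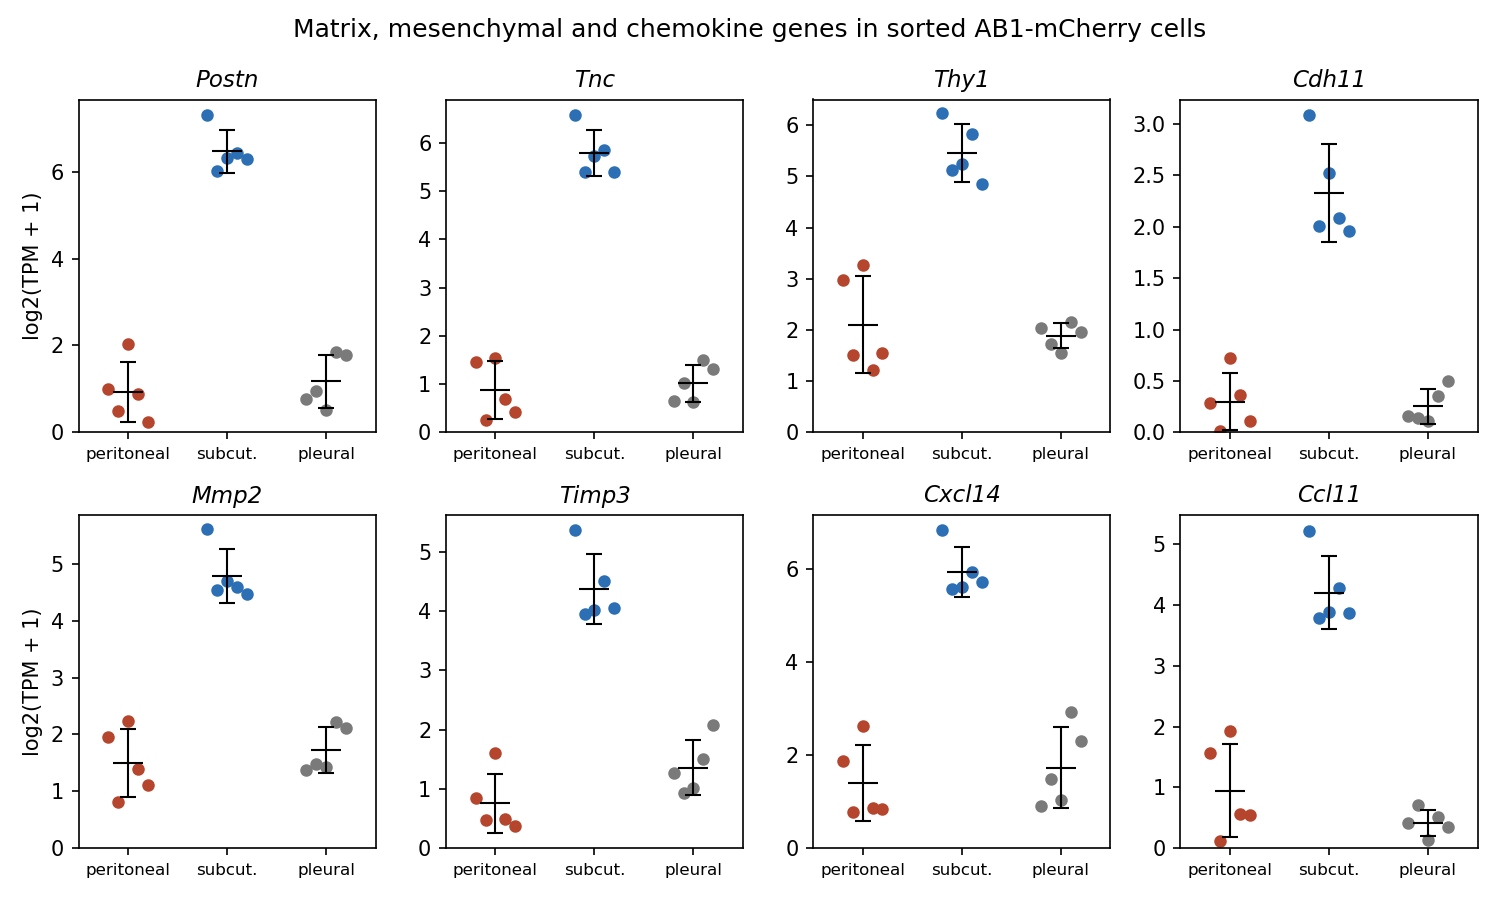
Levels of 8 genes in each sorted library, as log2(TPM + 1), with bars at the mean and SD of 5 libraries per site. For each gene every subcutaneous library lies above every peritoneal library, and subcutaneous library 1 is the highest of its group.

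Of 24 matricellular genes listed, 18 were tested, 7 of them lower (38.9%, against 6.33% of all genes), with a list median of -0.44. Besides Postn and Tnc these were Thbs4 (-2.85), Bgn (-0.90), Thbs1 (-1.03), Spp1 (-0.48) and Sparc (-0.41); all 7 are named because they make up the count. Spp1, osteopontin, was abundant at both sites, with 4940.4 to 6241 TPM in peritoneal cells and 7676 to 8226 TPM in subcutaneous cells, and the groups did not overlap. Fn1 and Vcan, fibronectin and versican, were expressed at 1031 to 1340.0 and 83.6 to 115 TPM in peritoneal libraries and did not pass the test, with differences of 0.08 and 0.09. The count of 7 lay between 6 and 7 under every alternative, those without subcutaneous libraries 1 and 2 or without peritoneal libraries 2 and 5 included.

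Many collagen chains were lower as well. Of 20 chains tested, 11 were lower (55%), with a median of -0.58. Col1a1, a chain of the main fibrillar collagen, had 238, 167, 224, 230.4 and 167 TPM in peritoneal libraries, against 541, 325, 433, 321 and 327 TPM in subcutaneous libraries. The groups did not overlap and the difference was -0.91 ± 0.15 (SE, adjusted p = 0.0014). Col5a3, a minor fibrillar chain, averaged 9.66 ± 3.40 TPM in peritoneal and 29.9 ± 6.17 TPM in subcutaneous cells (SD, n = 5 each), at -1.58 ± 0.21 (SE, adjusted p = 2.6e-04). Col15a1, a chain of basement membrane zones, differed most of the 3 collagens named by rule, at -3.10 ± 0.42 (SE, adjusted p = 3.2e-04). Only 6 chains were lower without peritoneal library 2, without subcutaneous library 1, or without either pair of libraries that stood apart.

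Some genes of matrix maturation and degradation were lower too. Lox and Loxl2 encode lysyl oxidases, which crosslink collagen and elastin. Lox had 2.19, 0.801, 3.18, 1.63 and 0.848 TPM in peritoneal libraries, against 25.4, 11.2, 14.2, 15.8 and 10.6 TPM in subcutaneous libraries, and the groups were separate, at -2.60 ± 0.30 (SE, adjusted p = 5.5e-05). Loxl2 differed by -2.27 ± 0.23 (SE, adjusted p = 1.6e-05). Of 17 tested genes of collagen crosslinking and processing, 4 were lower (23.5%) and Pcolce, an enhancer of procollagen cleavage, was higher (0.40). Among 15 tested matrix metalloproteinases, plasminogen activators and their inhibitors, 9 were lower (60%) and 2 higher (13.3%), with a median of -0.81. Mmp2, gelatinase A, had 2.87, 0.749, 3.71, 1.61 and 1.15 TPM in peritoneal libraries, against 48.4, 22.4, 25.1, 23.2 and 21.2 TPM in subcutaneous libraries. All subcutaneous values exceeded all peritoneal ones, at -3.29 ± 0.29 (SE, adjusted p = 4.4e-06). Timp3, a matrix-bound inhibitor of metalloproteinases, differed by -3.63 ± 0.30 (SE, adjusted p = 2.8e-06), while Mmp3, stromelysin, was at 0.237 to 0.976 TPM in peritoneal and 7.35 to 32.2 TPM in subcutaneous cells. Mmp3 passed the filter through the subcutaneous libraries alone, and the other 8 lower members reached 1 TPM elsewhere too. The 2 higher members were Mmp11 (0.70), a stromelysin of tumour stroma, and Mmp23 (0.35), and the count was 1 without peritoneal library 2 or subcutaneous library 5.

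Markers of fibroblasts and of endothelium followed the same direction. Of 11 fibroblast markers tested (14 listed), 7 were lower (63.6%), with a median of -1.26. Of these, 6 also reached 1 TPM outside the subcutaneous libraries, and the other, Col14a1, could pass the filter only by being high there. Their summed level was 218 to 367 TPM in peritoneal libraries and 393 to 671 TPM in subcutaneous libraries. The groups were separate (two-sided exact permutation test, p = 0.00794, the smallest the design allows, adjusted over 17 sums p = 0.0169). Thy1, a surface glycoprotein of fibroblasts, had 6.90, 1.85, 8.59, 1.31 and 1.93 TPM in peritoneal libraries, against 74.9, 33.7, 36.9, 55.6 and 27.8 TPM in subcutaneous libraries. Every subcutaneous library exceeded every peritoneal one, at -3.35 ± 0.37 (SE, adjusted p = 3.4e-05). Dcn and Lum, collagen-binding proteoglycans that dominate the sum, did not pass the test (-0.31 and -0.57), and the markers Fap, Dpep1 and Clec3b were not among the entries of the table. Of 7 endothelial markers tested, 6 were lower (85.7%), with a median of -1.56. They were scarce in either group, and the sum of all 7 was 5.54 to 15.8 TPM in peritoneal libraries and 27.6 to 43.2 TPM in subcutaneous libraries (two-sided exact permutation test, p = 0.00794, adjusted p = 0.0169), and Kdr, Tek, Cldn5, Vwf and Erg were not among the entries. Fewer cells of a type and less RNA per cell cannot be told apart in such bulk libraries. The part of these cell types in the matrix differences was not tested. Without peritoneal libraries 2 and 5 the fibroblast sum did not pass (p = 0.0536, exact permutation test). Pericyte and smooth muscle markers summed to 4.13 to 14.1 TPM in peritoneal libraries and 16.7 to 29.4 TPM in subcutaneous libraries, and erythroid markers went the other way, with 20.5 to 192 TPM in peritoneal libraries and 5.25 to 20.9 TPM in subcutaneous libraries (two-sided exact permutation test, p = 0.0159, adjusted p = 0.03), a call lost on leaving out any 1 subcutaneous library. A filter of 5 TPM left 4 fibroblast and 2 endothelial markers lower.

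Fabp4, a fatty acid carrier of fat cells and capillaries, was the 1 adipocyte marker in the table and was lower, with 4.80, 1.74, 8.35, 1.80 and 1.85 TPM in peritoneal libraries, against 18.4, 11.3, 15.4, 17.4 and 14.7 TPM in subcutaneous libraries, at -1.98 ± 0.37 (SE, adjusted p = 0.0037). Its groups did not overlap. Igfbp3, which binds insulin-like growth factors in the extracellular space, averaged 3.19 ± 2.45 TPM in peritoneal and 35.5 ± 8.54 TPM in subcutaneous cells (SD, n = 5 each), at -3.29 ± 0.33 (SE, adjusted p = 1.5e-05). Cdh11, a cadherin of mesenchymal cells, was 0.0127 to 0.651 TPM in peritoneal and 2.87 to 7.47 TPM in subcutaneous cells, and 0.0805 to 0.417 TPM in pleural cells. It passed the filter through the subcutaneous libraries alone, so no test is given. Fgfr1, a receptor of fibroblast growth factors, differed by -1.85 ± 0.24 (SE, adjusted p = 2.3e-04). Vim, vimentin, the intermediate filament of mesenchymal cells, was at 3911 to 4947 TPM in peritoneal and 4216 to 4623 TPM in subcutaneous cells and did not pass the test (-0.05, adjusted p = 0.75).

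Chemokines, secreted attractants of leukocytes, were lower in 11 of 23 tested genes (47.8%), with a median of -1.59. Cxcl14, a chemokine of skin and stroma, had 2.65, 0.709, 5.19, 0.817 and 0.794 TPM in peritoneal libraries, against 115, 46.5, 48.3, 60.1 and 51.9 TPM in subcutaneous libraries. Subcutaneous library 1 was the highest, the groups were separate, and the difference was -4.55 ± 0.43 (SE, adjusted p = 7.9e-06). Ccl11, eotaxin, differed by -3.26 ± 0.33 (SE, adjusted p = 1.6e-05), and Cxcl12, a ligand of CXCR4, by -2.78 ± 0.27 (SE, adjusted p = 1.3e-05). Ccl2, which draws monocytes, had 2.57, 1.42, 2.43, 0.692 and 1.25 TPM in peritoneal libraries, against 39.7, 23.9, 9.09, 19.8 and 10.0 TPM in subcutaneous libraries, again with no overlap, at -2.87 ± 0.39 (SE, adjusted p = 2.9e-04). The neutrophil attractants Cxcl1 (-1.80) and Cxcl2 (-1.78) passed with overlapping groups, and they were named after their values were seen. For these 2 the peritoneal minus pleural differences were -2.41 ± 0.48 (SE, adjusted p = 0.0096) and -2.46 ± 0.46 (SE, adjusted p = 0.007), while those of Cxcl14 and Ccl11 were -0.33 ± 0.43 (SE, adjusted p = 0.64) and 0.53 ± 0.33 (SE, adjusted p = 0.31). Without peritoneal libraries 2 and 5, 7 chemokines were lower.

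Interferon response genes were lower in 14 of 44 tested (31.8%), with a median of -0.89. Irf7, a transcription factor that amplifies type I interferon, had 32.6, 28.8, 35.6, 21.4 and 30.5 TPM in peritoneal libraries, against 94.5, 64.3, 50.9, 54.3 and 53.3 TPM in subcutaneous libraries. The groups were separate, at -1.05 ± 0.22 (SE, adjusted p = 0.0081). Rsad2, the antiviral enzyme viperin, differed by -1.33 ± 0.26 (SE, adjusted p = 0.0046), and Oasl1, a sensor-like antiviral protein, by -0.89 ± 0.19 (SE, adjusted p = 0.0092). Cxcl10, an interferon-induced attractant of T cells, had 32.6, 10.9, 59.5, 17.6 and 44.5 TPM in peritoneal libraries, against 166, 75.3, 128, 120.3 and 159 TPM in subcutaneous libraries, at -2.12 ± 0.48 (SE, adjusted p = 0.011), with no overlap. The list count fell to 7 without peritoneal library 2, 9 without peritoneal library 5, 8 without subcutaneous library 1, 5 without peritoneal libraries 2 and 5, and 5 without subcutaneous libraries 1 and 2. These last are the libraries rich in macrophage markers, whose part was not tested. In the comparison of peritoneal with pleural cells, which uses the same peritoneal libraries, limma called 0 of the 44 (1 at an unadjusted p under 0.05), with a median of -0.10.

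Antigen presentation genes gave no calls. Of 25 class I genes limma called 0 (4 lower at an unadjusted p under 0.05), with a median of -0.15. H2-K1, a classical class I heavy chain, was at 1485 to 2231 TPM in peritoneal and 1146 to 2023 TPM in subcutaneous cells, and B2m, its light chain, at 1438 to 2090.3 and 1489 to 2284 TPM. Their ranges overlapped. Of 7 class II genes 0 were called (7 lower at an unadjusted p under 0.05), with a median of -1.85; these are genes of professional antigen-presenting cells. Likewise 0 of 13 macrophage markers were called (8 lower at an unadjusted p under 0.05). Cd274, the checkpoint ligand PD-L1, had 6.84, 1.47, 5.43, 2.35 and 4.15 TPM in peritoneal libraries, against 17.8, 9.48, 7.72, 8.39 and 11.8 TPM in subcutaneous libraries. All peritoneal values lay below all subcutaneous ones, yet the difference of -1.32 ± 0.42 (SE, adjusted p = 0.055) missed the threshold.

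Transcripts of the mitochondrial genome, which encodes 13 subunits of the respiratory chain and its 2 ribosomal RNAs, were lower in peritoneal cells. They made up 2.92 to 4.5% of TPM in peritoneal libraries and 5.61 to 6.64% in subcutaneous libraries (two-sided exact permutation test, p = 0.00794, adjusted p = 0.0169), with 5.13 to 6.38% in pleural libraries. Of 15 genes, 14 were lower (93.3%), and the median was -1.40. A core subunit of complex I, mt-Nd1, had 879.8, 912, 598, 434 and 595 TPM in peritoneal libraries, against 2967, 3173, 2718, 2650.2 and 3343 TPM in subcutaneous libraries. The groups were far apart, at -2.17 ± 0.18 (SE, adjusted p = 2.8e-06). The large ribosomal RNA mt-Rnr2 had 48.1, 26.9, 37.1, 41.8 and 31.4 TPM in peritoneal libraries, against 187, 126, 181, 208 and 256 TPM in subcutaneous libraries, without overlap, at -2.33 ± 0.22 (SE, adjusted p = 7.9e-06).

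The size of the difference varied along the genome's transcripts. The 7 complex I subunits ranged from -3.11 (mt-Nd3) to -1.27 (mt-Nd2), mt-Nd5 standing at -1.40 ± 0.14 (SE, adjusted p = 1.2e-05). Complex IV and V subunits differed less, with -0.98 for mt-Co2, -0.63 for mt-Co3, -0.80 for mt-Atp8 and -0.47 for mt-Atp6, and mt-Cytb of complex III differed by -0.46; the members beyond mt-Nd1, mt-Nd5, mt-Rnr2 and mt-Co1 were named after their values were seen. The exception was mt-Co1, the catalytic subunit of complex IV, at 7629.7 to 9385 TPM in peritoneal and 8530.2 to 10021 TPM in subcutaneous cells and a difference of -0.15 ± 0.07 (SE, adjusted p = 0.19). Against pleural cells 14 of the 15 were also lower (4.45% of all genes), with mt-Nd1 at -2.02 ± 0.18 (SE, adjusted p = 4.4e-05) and mt-Rnr2 at -2.62 ± 0.22 (SE, adjusted p = 3.6e-05); both comparisons share the peritoneal libraries. Whole tumours gave another picture, with 0 of 15 called by limma and 0 at an unadjusted p under 0.05, and mt-Nd1 at -0.25 ± 0.18 (SE, adjusted p = 0.36). Of 75 respiratory chain genes of the nucleus, 2 were higher (2.67%, below the 4.75% of all genes) and the median was 0.06. Sorted cells and whole tumours were extracted with different kits, so the 2 tables were not tested against each other.

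**Figure D3:**
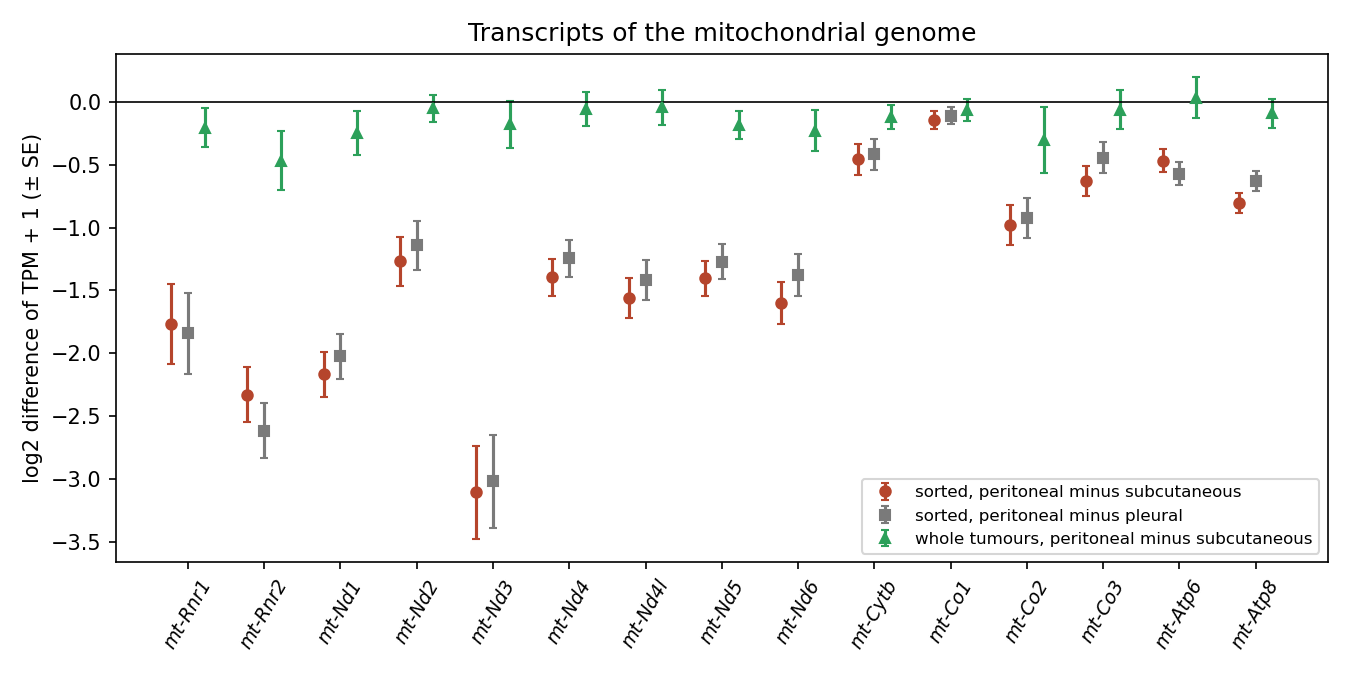
Differences of the 15 transcripts of the mitochondrial genome as log2 of TPM + 1, with SE bars, for sorted cells (circles, peritoneal minus subcutaneous; squares, peritoneal minus pleural) and whole tumours (triangles, peritoneal minus subcutaneous). Sorted cell values reach -3.11 for mt-Nd3 and stay at -0.15 for mt-Co1, while whole tumour values lie between -0.47 (mt-Rnr2) and 0.04 (mt-Atp6).

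Immediate early transcription factors were lower in peritoneal cells in 14 of 29 tested (48.3%), with a median of -0.78. Klf4, a zinc finger factor, had 37.1, 23.3, 74.1, 31.6 and 42.9 TPM in peritoneal libraries, against 202, 105, 151, 279 and 346 TPM in subcutaneous libraries. The groups were separate, at -2.33 ± 0.31 (SE, adjusted p = 2.3e-04). Egr2, a zinc finger factor induced by growth factors, had 5.99, 2.71, 9.70, 3.88 and 4.03 TPM in peritoneal libraries, against 39.3, 13, 28.2, 32.8 and 43.9 TPM in subcutaneous libraries, also without overlap, at -2.37 ± 0.36 (SE, adjusted p = 8.2e-04). Ier3, an early response gene tied to survival, differed by -1.86 ± 0.29 (SE, adjusted p = 9.9e-04), its groups overlapping through peritoneal library 3, which was the highest peritoneal library for Klf4, Egr2 and Ier3 alike. Fosb, an AP-1 subunit, and Nr4a2, an orphan nuclear receptor, are given for the sequences shown here and were not picked by the naming rule. Fosb had 161, 246, 356, 115 and 196 TPM in peritoneal libraries, against 652, 266, 932, 1104 and 1385 TPM in subcutaneous libraries, at -1.91 ± 0.36 (SE, adjusted p = 0.0039), and Nr4a2 6.16, 2.46, 13.8, 4.59 and 3.00 TPM against 34.4, 12.6, 17.8, 33 and 49.4 TPM in the same order of groups, at -2.18 ± 0.40 (SE, adjusted p = 0.0033). In both genes subcutaneous library 2 was the lowest of its group, below peritoneal library 3. Leaving out subcutaneous libraries 1 and 2 raised the list count to 22.

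Many promoters of these genes carry cAMP response elements, bound by CREB. The core TGACG of that element, searched on either strand from 250 bases before to 50 bases after each start, was present in 7 of 9 lower immediate early genes with an entry in the RefSeq promoter table, out of 14 lower, against 23% of all 27025 genes with an entry. It was also in 6 of 10 lower cholesterol genes with an entry. The TATA box TATAAA was in 1 of the 9 (15.7% of all genes) and the AP-1 site TGANTCA in 1 (8.97%). A match is a string of letters and not a bound site. The 250 bases before the start are printed 5′ to 3′ on the gene's strand, from RefSeq on GRCm38.p6, for 3 genes. These have the smallest adjusted p among lower genes with 1 entry and such a core, with genes on 1 chromosome left out. The core is in capitals (CGTCA where it lies on the opposite strand). Klf4 is at chr4:55532476-55532725, minus strand, Nr4a2 at chr2:57124004-57124253, minus strand and Fosb at chr7:19310046-19310295, minus strand. The single core begins 232 bases before the start in Klf4 and 60 bases before it in Fosb, while Nr4a2 has 4, from 200 to 111 bases before it.
Klf4: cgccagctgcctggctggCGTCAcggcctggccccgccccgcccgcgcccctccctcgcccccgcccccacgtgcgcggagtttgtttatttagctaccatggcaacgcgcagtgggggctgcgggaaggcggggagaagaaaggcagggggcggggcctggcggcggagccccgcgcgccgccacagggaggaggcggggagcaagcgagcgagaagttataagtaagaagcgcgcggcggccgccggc
Nr4a2: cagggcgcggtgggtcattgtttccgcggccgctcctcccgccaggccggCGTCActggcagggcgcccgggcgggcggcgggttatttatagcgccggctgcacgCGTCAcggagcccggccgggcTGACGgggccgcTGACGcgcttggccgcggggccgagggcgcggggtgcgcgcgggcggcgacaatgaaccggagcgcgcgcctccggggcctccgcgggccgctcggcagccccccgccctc
Fosb: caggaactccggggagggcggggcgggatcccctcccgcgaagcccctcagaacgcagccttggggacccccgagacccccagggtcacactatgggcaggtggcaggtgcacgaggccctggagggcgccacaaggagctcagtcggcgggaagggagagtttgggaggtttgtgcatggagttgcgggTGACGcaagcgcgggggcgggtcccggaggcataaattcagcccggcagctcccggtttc

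Feedback regulators of MAP kinases and stress-induced signals went the same way. Of 18 feedback genes tested, 8 were lower (44.4%), with a median of -0.63. Sgk1, a kinase induced by serum, osmotic stress and glucocorticoids, had 7.76, 9.47, 22.7, 9.91 and 7.45 TPM in peritoneal libraries, against 66.1, 25.5, 72.3, 141 and 156 TPM in subcutaneous libraries. Subcutaneous library 2 was the lowest of its group and peritoneal library 3 the highest of its own, still without overlap, at -2.77 ± 0.46 (SE, adjusted p = 0.0017). Dusp2, a nuclear phosphatase of ERK and p38, differed by -1.31 ± 0.26 (SE, adjusted p = 0.005), and Spry4, a Sprouty inhibitor of receptor signalling, by -0.67 ± 0.14 (SE, adjusted p = 0.0066). The count was 5 without peritoneal library 2, without subcutaneous library 3 and without subcutaneous library 5, and 3 without peritoneal libraries 2 and 5. Among 25 NF-kB response genes 8 were lower (32%), Rel, an NF-kB subunit, by -1.71 ± 0.34 (SE, adjusted p = 0.0053). That count was 4 without peritoneal library 2, 5 without subcutaneous library 3, 4 or 5, and 2 without peritoneal libraries 2 and 5. Gadd45b, a stress and growth arrest gene, differed by -1.40 ± 0.30 (SE, adjusted p = 0.0081), and Il11, a cytokine of the interleukin-6 family, by -1.74 ± 0.35 (SE, adjusted p = 0.006). Hbegf, an EGF receptor ligand, had 42.8, 30.4, 47.5, 37.1 and 39.9 TPM in peritoneal libraries, against 100.1, 65.4, 83.3, 105 and 116 TPM in subcutaneous libraries, 2 groups with a clear gap, at -1.21 ± 0.17 (SE, adjusted p = 3.7e-04).

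Part of these genes were also lower against pleural cells, a comparison with the same peritoneal libraries. There 16 of 29 immediate early factors, 7 of 18 feedback genes and 7 of 25 NF-kB response genes were lower (4.45% of all genes were). Sgk1 differed by -2.97 ± 0.46 (SE, adjusted p = 0.0032), and Hbegf by -1.26 ± 0.17 (SE, adjusted p = 0.0011). Dusp2 did not pass, at -0.29 ± 0.26 (SE, adjusted p = 0.47). How far whole tumour levels lay from those of sorted cells differed by gene. Those of Fosb were of another order. Those of Egr2 in peritoneal whole tumours, 3.05 to 4.53 TPM, lay within its peritoneal sorted cell range of 2.71 to 9.70 TPM. Fosb was at 3.09 to 4.59 TPM in peritoneal and 3.35 to 5.56 TPM in subcutaneous whole tumours, and Ier3 at 20.0 to 37.5 and 22.2 to 30.2 TPM. Klf4 was at 13.3 to 17 TPM in peritoneal and 13.3 to 19.9 TPM in subcutaneous whole tumours. The tables were made separately and are not on a tested common scale. Within whole tumours 6 of 29 immediate early factors were lower in peritoneal tumours (3.64% of all genes were), Egr2 among them at -0.66 ± 0.13 (SE, adjusted p = 0.0069), while Ier3 differed by -0.01 ± 0.19 (SE, adjusted p = 0.98). Per the labels' protocols, whole tumours went directly into an RNA preservative and sorted cells did so after sorting. The part of that handling in the differences between sites was not tested.

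Many genes of cholesterol synthesis and uptake were lower. Of 28 listed, 27 were tested and 15 were lower (55.6%), with a median of -0.51, and the count stayed between 11 and 18 under every alternative. Hmgcs1, the HMG-CoA synthase of the mevalonate pathway, had 57.6, 43.1, 107, 64.7 and 51.2 TPM in peritoneal libraries, against 148, 95.5, 224, 187 and 249.6 TPM in subcutaneous libraries. Subcutaneous library 2 was again the lowest of its group and fell below peritoneal library 3, and the difference was -1.47 ± 0.25 (SE, adjusted p = 0.0018). Fdps, which makes farnesyl diphosphate, had 262, 238, 268, 225 and 311 TPM in peritoneal libraries, against 318, 374, 383, 402 and 432 TPM in subcutaneous libraries. Its groups did not overlap, at -0.55 ± 0.10 (SE, adjusted p = 0.0026). Mylip, an E3 ubiquitin ligase and a target of liver X receptors rather than of SREBP2, had 6.85, 3.40, 7.78, 5.41 and 4.25 TPM in peritoneal libraries, against 24.5, 12, 14.5, 12.6 and 16.6 TPM in subcutaneous libraries. It was separate as well, at -1.38 ± 0.24 (SE, adjusted p = 0.0024). Insig1, which retains the SREBP complex (-1.18), is shown in the plot and was chosen after its values were seen.

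**Figure D4:**
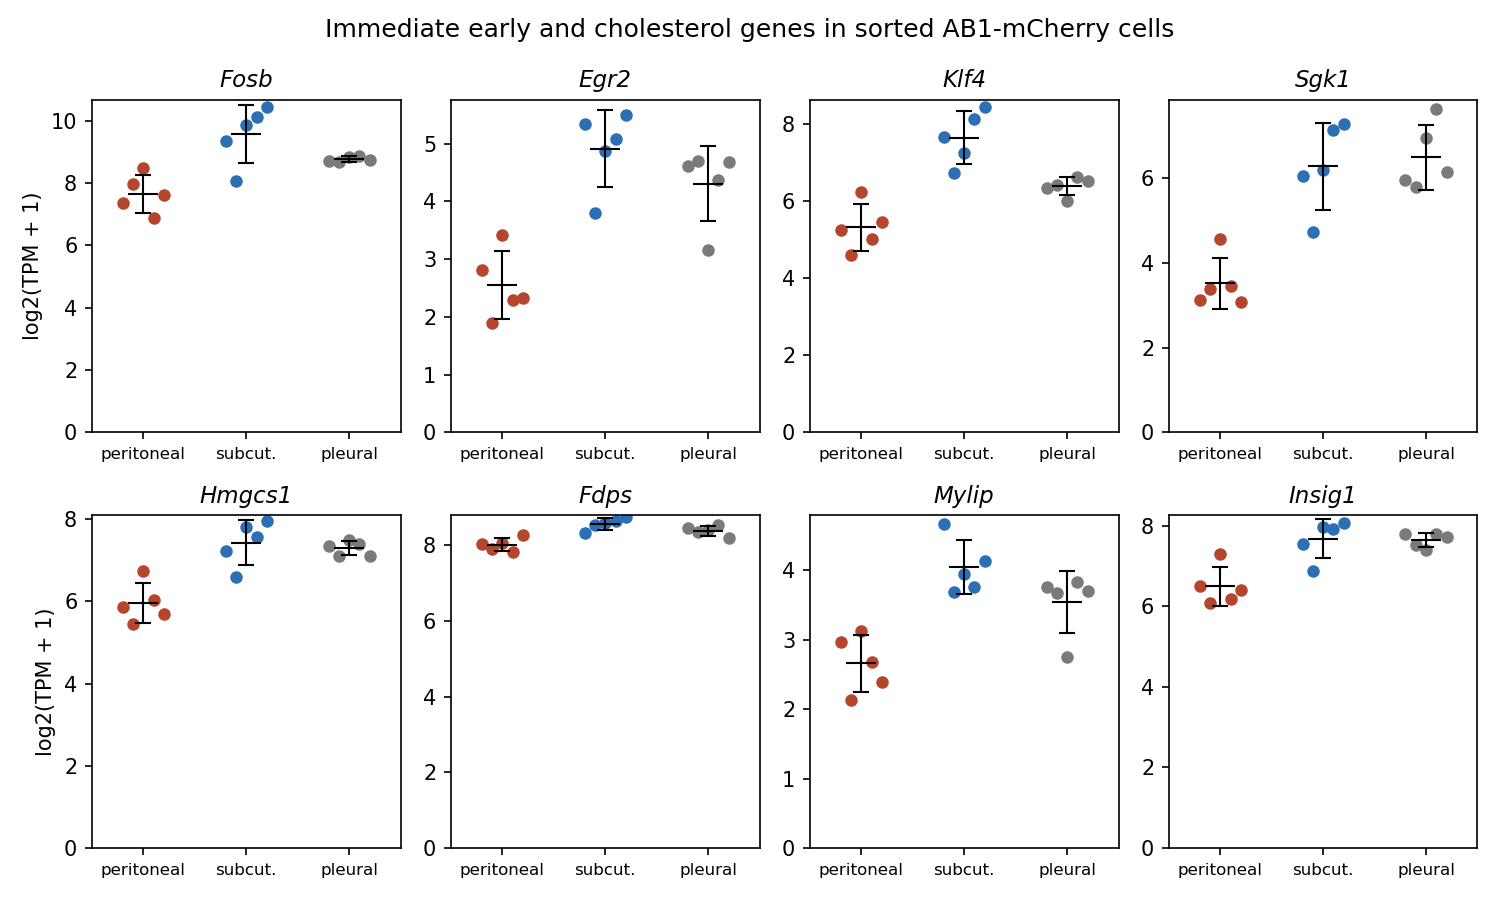
Levels of 4 immediate early or MAP kinase responsive genes (top) and 4 cholesterol genes (bottom) in each sorted library, as log2(TPM + 1), with bars at the mean and SD of 5 libraries per site. Peritoneal means are the lowest of the 3 sites in all 8 genes, from -2.77 (Sgk1) to -0.55 (Fdps) relative to subcutaneous cells.

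Against pleural cells 16 of the 27 were lower (4.45% of all genes were), with Hmgcs1 at -1.33 ± 0.25 (SE, adjusted p = 0.007). In whole tumours limma called 0 of 28 (2 higher and 2 lower at an unadjusted p under 0.05), and Hmgcs1 was at 73.1 to 96.9 TPM in peritoneal and 67.7 to 106 TPM in subcutaneous tumours. The CCAAT box, bound by the factor NF-Y that works beside SREBP2 at sterol genes, was present as CCAAT on either strand in 9 of 10 lower genes with a promoter entry, out of 15 lower, against 41.1% of all genes with one. The GC box GGGCGG was in 10 of 10 (38.2% of all genes), and also in 9 of 9 lower immediate early genes. Genes on the chromosome left out before were left out again. Of the rest, the 3 genes with the smallest adjusted p among those with 1 entry and a CCAAT box are shown. The box is in capitals (ATTGG on the opposite strand). The 3 genes are Hmgcs1 at chr13:119690101-119690350, plus strand, Mylip at chr13:45389492-45389741, plus strand and Insig1 at chr5:28071162-28071411, plus strand. Upstream of the start, Hmgcs1 and Mylip each hold 3 boxes and Insig1 holds 1.
Hmgcs1: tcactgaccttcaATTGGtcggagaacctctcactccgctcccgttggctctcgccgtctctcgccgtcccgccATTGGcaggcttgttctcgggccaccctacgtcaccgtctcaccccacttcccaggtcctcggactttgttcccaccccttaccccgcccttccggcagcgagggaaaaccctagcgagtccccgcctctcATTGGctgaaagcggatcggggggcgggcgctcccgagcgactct
Mylip: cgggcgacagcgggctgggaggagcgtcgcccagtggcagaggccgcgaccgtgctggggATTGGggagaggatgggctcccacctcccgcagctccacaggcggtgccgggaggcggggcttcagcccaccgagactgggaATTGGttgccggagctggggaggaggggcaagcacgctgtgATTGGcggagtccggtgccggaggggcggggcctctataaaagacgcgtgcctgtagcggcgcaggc
Insig1: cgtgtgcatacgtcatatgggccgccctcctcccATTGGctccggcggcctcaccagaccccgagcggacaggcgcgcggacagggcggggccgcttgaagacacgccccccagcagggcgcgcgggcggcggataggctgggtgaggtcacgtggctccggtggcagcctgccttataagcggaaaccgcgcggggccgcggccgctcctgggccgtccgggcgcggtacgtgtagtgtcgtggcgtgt

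TGF-beta signalling genes included lower members that act as ligand and inhibitor. Of 19 genes of the YAP and TGF-beta responses, 7 were lower (36.8%), with a median of -0.50. Tgfb1, the ligand, had 29.3, 24, 32.6, 29.7 and 30.0 TPM in peritoneal libraries, against 42.1, 44.5, 40.7, 38.5 and 41.7 TPM in subcutaneous libraries. The step was small but without overlap, at -0.50 ± 0.09 (SE, adjusted p = 0.0029). Smad7, the inhibitory Smad, differed by -1.76 ± 0.36 (SE, adjusted p = 0.006) with overlapping groups. Ccn1 and Ccn2, targets of YAP, did not pass the test (0.32 and 0.05). The count was 4 without peritoneal libraries 2 and 5.

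Among called genes that did not overlap, reached a mean of 5 TPM and bear no predicted or clone name, the largest positive difference was in Inmt, an indolethylamine methyltransferase, with 10.7, 5.05, 7.94, 4.67 and 8.64 TPM in peritoneal libraries, against 0.627, 0.261, 0.781, 0.479 and 0.542 TPM in subcutaneous libraries. The groups were separate, at 2.40 ± 0.29 (SE, adjusted p = 1.0e-04), and pleural libraries had 10.0, 2.81, 11.9, 10.5 and 10.4 TPM. Tinagl1, a secreted matrix-associated protein related to tubulointerstitial nephritis antigen, varied little within either group, with 52, 49.1, 52.4, 50.3 and 53 TPM in peritoneal libraries, against 23.2, 21.6, 20.0, 26.4 and 21 TPM in subcutaneous libraries. Its difference was 1.16 ± 0.09 (SE, adjusted p = 1.5e-06), and against pleural cells 0.58 ± 0.09 (SE, adjusted p = 0.0032). Car9, carbonic anhydrase IX, a target of hypoxia-inducible factor, had 39.6, 75.9, 103, 64.3 and 52.8 TPM in peritoneal libraries, against 17.9, 22.7, 17.3, 32.4 and 24.8 TPM in subcutaneous libraries, separate at 1.47 ± 0.24 (SE, adjusted p = 0.0016), and 72.1 to 145 TPM in pleural libraries. Of the hypoxia list, 2 of 24 were higher (8.33%, against 4.75% of all genes) and 2 lower (8.33%, against 6.33%), with a median of -0.20. Vegfa differed by -0.51 ± 0.20 (SE, adjusted p = 0.11). Car9 and Mif were the higher members, and the count was 1 without peritoneal library 2 or 5 or without subcutaneous library 1, 3 or 5. Calcb, which encodes beta-CGRP, a neuropeptide, differed by 1.45 ± 0.25 (SE, adjusted p = 0.0023), Csn3, kappa-casein, by 1.58 ± 0.22 (SE, adjusted p = 3.1e-04), and Bcl2l15, a Bcl-2 family member, by 1.03 ± 0.16 (SE, adjusted p = 0.001).

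Retinoid genes changed in both directions. Of 12 tested, 4 were higher (33.3%, against 4.75% of all genes) and 3 lower (25%), with a median of -0.12. Dhrs3, which reduces retinaldehyde to retinol and is induced by retinoic acid, had 60.1, 72.2, 67.2, 56 and 77.3 TPM in peritoneal libraries, against 16.1, 19.1, 13.9, 14.5 and 9.42 TPM in subcutaneous libraries. No value overlapped, and the difference was 2.14 ± 0.22 (SE, adjusted p = 1.7e-05), with 1.48 ± 0.22 (SE, adjusted p = 0.0027) against pleural cells. Stra6, the receptor that takes up retinol from its carrier, had 31, 18.3, 22, 25.4 and 25.2 TPM in peritoneal libraries, against 10.6, 9.68, 12.8, 5.11 and 7.78 TPM in subcutaneous libraries, separate at 1.35 ± 0.21 (SE, adjusted p = 0.0011). The other higher members were Rarb (0.64), a retinoic acid receptor induced by its ligand, and Crabp2 (0.50), which carries retinoic acid to receptors. Among the lower members, Crabp1, another retinoic acid carrier, was listed at 0 in all 5 peritoneal libraries, against 17.7, 6.46, 10.2, 17.9 and 4.01 TPM in subcutaneous libraries. It reached 1 TPM in subcutaneous libraries alone and so passed the filter by being high there, while the other 2 lower members reached 1 TPM elsewhere too. A filter of 5 TPM left 1 retinoid gene lower. In whole tumours Dhrs3 differed by 1.37 ± 0.18 (SE, adjusted p = 3.2e-04) and Stra6 by 2.74 ± 0.27 (SE, adjusted p = 1.8e-05).

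**Figure D5:**
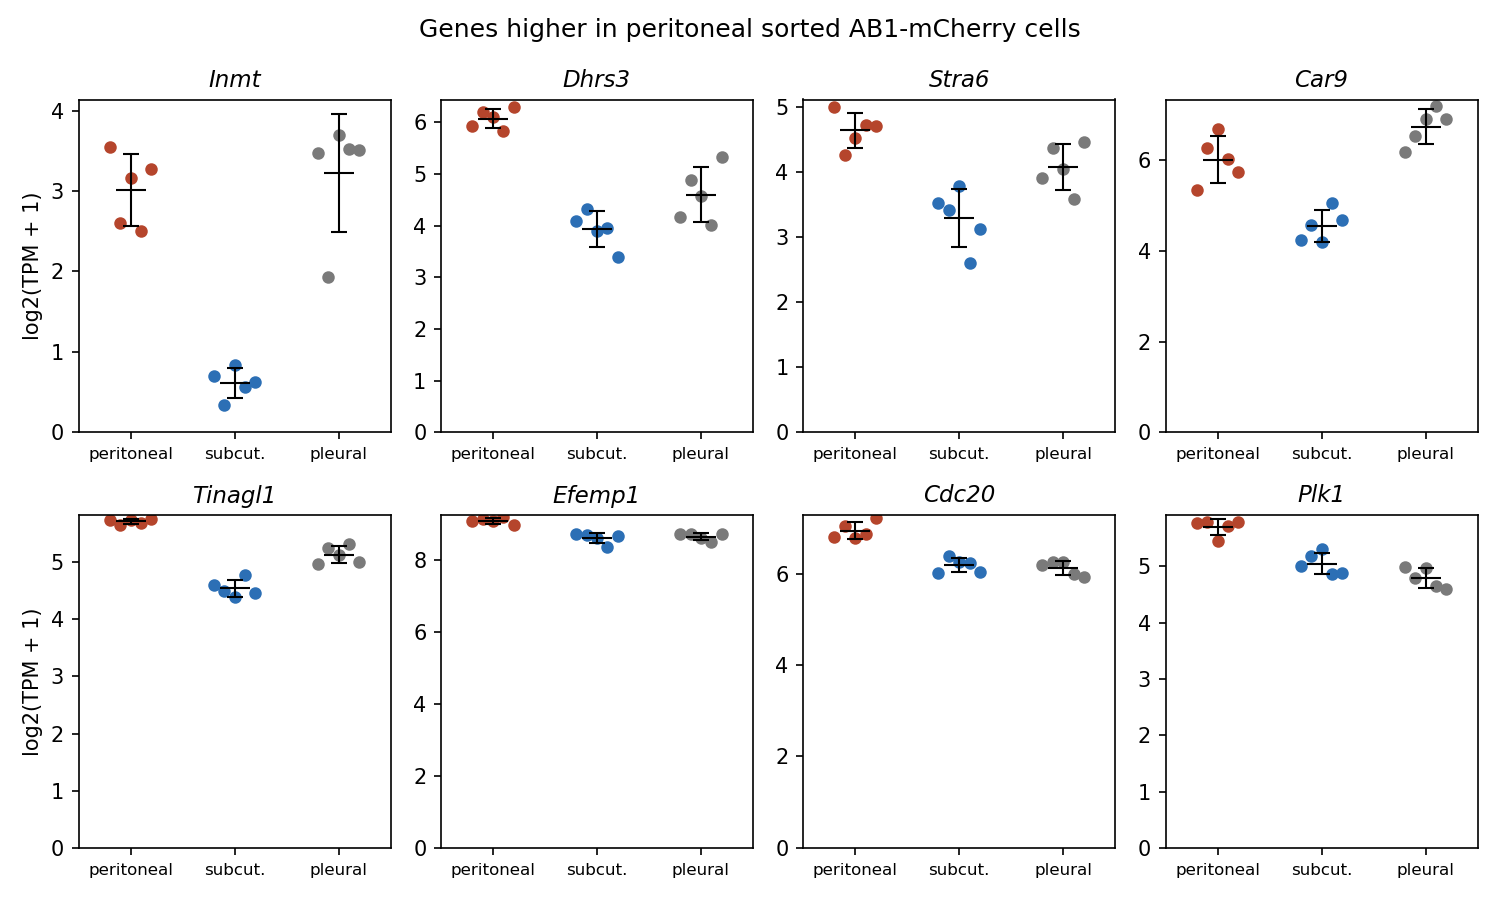
Levels of 8 genes that were higher in peritoneal cells, in each sorted library, as log2(TPM + 1), with bars at the mean and SD of 5 libraries per site. Every peritoneal library lies above every subcutaneous one, with differences between 0.48 (Efemp1) and 2.40 (Inmt).

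Mesothelial markers were measured in 7 of 20 listed genes. Of these, 3 were higher (42.9%) although the list median was -0.20. Efemp1, fibulin-3, a secreted glycoprotein used as a mesothelioma marker, had 539, 564, 539, 592 and 503 TPM in peritoneal libraries, against 419, 417, 393, 329.8 and 406 TPM in subcutaneous libraries. The groups did not overlap, at 0.48 ± 0.07 (SE, adjusted p = 9.9e-04). Krt18, a simple epithelial keratin, was scarce, at 1.56 to 3.08 TPM in peritoneal and 0.170 to 1.12 TPM in subcutaneous cells, and differed by 1.03 ± 0.23 (SE, adjusted p = 0.011). Msln, mesothelin, had 214, 304, 237, 243 and 208 TPM in peritoneal libraries, against 149.9, 189, 157, 178 and 158 TPM in subcutaneous libraries, at 0.52 ± 0.16 (SE, adjusted p = 0.046). That call was lost on leaving out any 1 of peritoneal libraries 2, 3 and 4 or of subcutaneous libraries 1, 3, 4 and 5. The summed level was 761 to 915 TPM in peritoneal libraries and 572 to 692 TPM in subcutaneous libraries (two-sided exact permutation test, p = 0.00794, adjusted p = 0.0169), and summed on the log scale it differed by 1.01 (p = 0.151).

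Mitosis genes were modestly higher. Of 30 tested, 12 were higher (40%), with a median of 0.29. Cdc20, an activator of the anaphase-promoting complex, had 111, 130.3, 109, 116 and 148 TPM in peritoneal libraries, against 63.8, 82.4, 75.6, 73.9 and 64.4 TPM in subcutaneous libraries. The groups were separate, at 0.76 ± 0.10 (SE, adjusted p = 3.2e-04). Plk1, a mitotic kinase, differed by 0.65 ± 0.11 (SE, adjusted p = 0.0019), and Dlgap5, a spindle protein, by 0.49 ± 0.10 (SE, adjusted p = 0.0049). Mki67, the proliferation antigen Ki-67, had 83.3, 65.4, 65.1, 85.9 and 28.8 TPM in peritoneal libraries, against 72.9, 46.3, 74.7, 48.2 and 64 TPM in subcutaneous libraries, overlapping, at 0.04 ± 0.23 (SE, adjusted p = 0.93). The count was 6 without peritoneal library 2, 7 without peritoneal library 5, 7 without subcutaneous library 1, and 6 without subcutaneous library 4 or 5. It was 5 without peritoneal libraries 2 and 5. Replication genes gave 4 higher of 36 (11.1%), with Pold1, a DNA polymerase delta subunit, at 0.65 ± 0.12 (SE, adjusted p = 0.0031) and Mcm3, a helicase subunit, at 0.43 ± 0.09 (SE, adjusted p = 0.0058). That count was 2 without peritoneal library 5, subcutaneous library 4 or subcutaneous library 5, 10 with median-of-ratios scaling and 11 with quantile normalization.

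Cytosolic ribosomal protein genes were higher in 21 of 81 tested (25.9%), with a median of 0.19, but limma called 0 of them higher with median-of-ratios scaling. The count also moved with single libraries, to 2 without peritoneal library 2, 13 without peritoneal library 5, 3 without subcutaneous library 1, 10 without subcutaneous library 3, 5 without subcutaneous library 5 and 37 without peritoneal library 1. Neither pair of libraries that stood apart could be left out without the count falling to 1 or 2. Glycolytic genes were higher in 4 of 20 (20%), Aldoa, aldolase A, by 0.45 ± 0.10 (SE, adjusted p = 0.0097), and the lactate exporter Slc16a3 was lower, by -1.64 ± 0.29 (SE, adjusted p = 0.0028). The count of 4 became 1 without subcutaneous library 5 and 2 without subcutaneous library 3. Plin2, which coats lipid droplets, had 245, 254, 235, 267 and 207 TPM in peritoneal libraries, against 158, 176, 154, 175 and 128 TPM in subcutaneous libraries. The gap between groups was wide relative to their spread, at 0.61 ± 0.10 (SE, adjusted p = 0.0015). Gpx4, which detoxifies lipid peroxides, differed by 0.40 ± 0.08 (SE, adjusted p = 0.0047), while Gpx3, the secreted plasma form, differed by -3.33 ± 0.41 (SE, adjusted p = 1.4e-04). Bap1 and Nf2, tumour suppressors lost in many human mesotheliomas, did not pass the test (-0.03 and -0.29).

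Whole tumours of the same sites, which hold stroma and leukocytes beside cancer cells, were compared in the same way. There 1831 of 15054 genes were called (12.2%), 1283 higher (8.52%) and 548 lower (3.64%) in peritoneal tumours. Over the 11952 genes tested in both tables, 229 were called in the same direction and 10 in opposite directions, 17.2% of the 1331 sorted cell calls and 16.1% of the 1426 whole tumour calls. Of genes lower in peritoneal sorted cells, 15.6% were also lower in peritoneal whole tumours (2.66% of the genes tested in both), and of those higher, 19.3% were also higher (9.27% of the genes tested in both). The tables share mouse numbers, so some animals may be in both. For some peritoneal whole tumours the library name carries another number than the mouse in the sample title, and the number in the title was used. Tnc, tenascin C, had 5.30, 6.79, 7.91, 7.80 and 4.42 TPM in peritoneal whole tumours, against 81.8, 134, 112, 132 and 133 TPM in subcutaneous whole tumours, at -4.01 ± 0.27 (SE, adjusted p = 2.7e-07). Postn was lower there too, at -3.97 ± 0.51 (SE, adjusted p = 2.8e-04). By contrast Igfbp7, an IGF-binding protein of vessels and stroma, differed by -2.40 ± 0.39 (SE, adjusted p = 0.0014) in sorted cells and by -0.17 ± 0.30 (SE, adjusted p = 0.73) in whole tumours. Inmt stood at 3.31 ± 0.25 (SE, adjusted p = 1.3e-06) in whole tumours.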

How the data were processed

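RNA from 31 libraries was sequenced as single-end reads, per the labels' protocols. The authors deposited 1 table of TPM per sample type, sorted cells and whole tumours. Per the submitters' processing notes kallisto and GRCm39 were used, in versions not given in the sources used here, and how transcripts were summed to genes is not stated. TPM keeps no read depth, so no counting interval can be given, and a loss of abundant transcripts raises all others. Of 12461 entries in the sorted table, 17 were calendar dates (gene symbols altered by a spreadsheet) and were left out, and 87 fell below 1 TPM in at least 5 libraries, which left 12357 genes.

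Differences were estimated on the log2(TPM + 1) scale by moderated linear models (limma 3.58.1, R 4.3.3), fitted once to all 3 sites with a mean-variance trend, and p-values were adjusted by Benjamini-Hochberg over all genes. The fit was tested on simulated data with known changes. The whole tumour table was fitted separately. Marker sums were compared by two-sided exact permutation tests (252 arrangements). SE are from limma, and n is 5 libraries per site. Genes were named by rule: the 12 largest non-overlapping called differences in each direction with a mean of at least 5 TPM, the 3 called members with the smallest adjusted p of each list, and a fixed set. Others are said to be chosen after their values were seen or make up a count. A few genes that the rule selects are not reported here. The members and the 63 lists were chosen with earlier results of these data known. Alternatives were another pseudocount, other filters and scalings, array weights, robust moderation, only the compared sites, a replicate block, a stricter threshold, and leaving out libraries singly or in pairs; leaving out single pleural libraries was added after seeing the data. Promoters are the RefSeq windows on GRCm38.p6, used for sequence only.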

Additional observations from a re-analysis of the deposited data

Results flagged for a closer look

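Library 1 of the subcutaneous cells stood apart in several matrix and secreted genes, where its gap to the nearest library exceeded the 95% limit of Dixon's test for 5 samples (0.71 of the range, on the log2 scale). There it had 48.1 TPM of Cpxm1, a carboxypeptidase-like protein (the other subcutaneous libraries 16.5 to 21.6), 115 TPM of Cxcl14 (46.5 to 60.1), 38.4 TPM of Gpx3 (16.3 to 20.7), 48.4 TPM of Mmp2 (21.2 to 25.1), 32.2 TPM of Mmp3 (7.35 to 10.5), 6 TPM of Nid2, a basement membrane nidogen (2.29 to 3), and 13.4 TPM of Oasl1 (8.35 to 9.53). In other subcutaneous libraries, Bhlhe40, a repressor of the circadian clock, was at 34.1 TPM in library 2 (55.8 to 67.5), Efemp1 at 330 TPM in library 4 (393 to 419), and the mitochondrial share at 6.64% in library 5 (5.61 to 5.88). Among peritoneal cells, library 2 had 24.2 TPM of Acsm3, a medium-chain acyl-CoA synthetase (the other peritoneal libraries 12.1 to 14.7), and a sum of erythroid markers of 192 TPM (20.5 to 36.4). Library 3 of the peritoneal cells had 42.6 TPM of Plk1 (51.8 to 54.4) and 22.7 TPM of Sgk1 (7.45 to 9.91), and library 4 had 129 TPM of Angptl4, a lipase inhibitor (82.8 to 89.9). In peritoneal library 5, Actb, beta-actin, was at 6650 TPM (4140 to 4570), Mki67 at 28.8 TPM (65.1 to 85.9) and Odc1, which starts polyamine synthesis, at 125 TPM (169 to 189). Chance marks about 1 in 20 groups, and 18 of the 320 groups checked were marked, a share close to that.

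Slc38a2, a sodium-coupled neutral amino acid transporter induced by amino acid shortage, had every peritoneal library below every subcutaneous one in sorted cells (-1.11) and every peritoneal library above in whole tumours (0.328, each as log2 difference). The difference between the 2 tables was not tested.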

How the results depend on the processing

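No called gene named by rule reversed under any alternative: of 133, 94 kept their call in all of them and 111 in all single leave-outs. The 1369 calls became 2486 with quantile normalization (61.3% higher, against 42.9%), 432 at an adjusted p under 0.01 and 739 without peritoneal libraries 2 and 5, and 758 to 1606 with 1 library left out. Rescaling without mitochondrial transcripts left 31.8% higher. No scaling moved the median of all genes by over 0.1 (log2). At 2-fold, the 317 calls became 202 with a filter of 5 TPM and 204 without peritoneal libraries 2 and 5. The 229 calls shared with whole tumours became 109 without a filter, 397 with array weights and 52 at an adjusted p under 0.01, and 149 to 238 with 1 library left out. Against pleural cells, 1231 calls became 1927 with median-of-ratios scaling, 2229 with quantile normalization, 187 at an adjusted p under 0.01 and 482 without peritoneal libraries 2 and 5, and 525 to 1421 with 1 library left out. The last digit of the mouse number, which joins different mice of different sites, was also used as a replicate block. With it 1383 genes were called, 23 interferon response genes were lower (14 without it) and 102 genes were shared with whole tumours. Deviations of peritoneal and subcutaneous libraries with the same digit correlated at -0.299 to 0.349. Libraries with different digits were not compared as a reference, so whether the digits mark a shared step cannot be decided from these values. Summed marker differences (TPM) changed side of the threshold as follows: without peritoneal libraries 2 and 5, T and NK cells 2.31, erythroid cells 17.54 and fibroblasts -166.7; without subcutaneous libraries 1 and 2, erythroid cells 51.41 and skeletal muscle 3.119; as log2 sums, mesothelium 1.013 and intestine -0.8968. With 1 library left out, differences were -169.6 to -65.16 for leukocytes, -779.3 to -319.4 for macrophages, -177.3 to -90.11 for neutrophils, 19.32 to 62.26 for erythroid cells and -31.25 to -20.68 for intestine. With only the compared sites fitted, lower genes numbered 7 among collagens, 5 in MAP kinase feedback and 5 in the NF-kB response, and 6 ribosomal protein genes were higher (12 when rescaled without mitochondrial transcripts). With array weights 6 mitosis genes were higher. The cause of these moves was not tested. Read depth is unknown, and 5 libraries per site limit the precision of low genes.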

Other observations

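Other genes of metabolism and of stress signalling also differed. Fabp5, a fatty acid carrier, differed by -1.99 ± 0.32 (SE, adjusted p = 0.0014). Ddit4, an mTOR inhibitor induced by hypoxia and glucocorticoids, differed by -0.95 ± 0.17 (SE, adjusted p = 0.0032) in sorted cells and by 0.42 ± 0.19 (SE, adjusted p = 0.15) in whole tumours. Of 31 genes of the unfolded protein and integrated stress response, 4 were higher (12.9%, against 4.75% of all genes), with a median of 0.04. The 2 lower ones made up 6.45%, near the 6.33% of all genes. The count of 4 became 2 without subcutaneous library 1 or 5, 8 with quantile normalization and 9 with array weights. Dnajb9, a chaperone of the unfolded protein response, differed by -1.12 ± 0.19 (SE, adjusted p = 0.0019), and Ppp1r15a, which reverses eIF2alpha phosphorylation, by -0.91 ± 0.15 (SE, adjusted p = 0.0017). Among the higher members, Shmt2, a mitochondrial enzyme of serine catabolism, differed by 0.50 ± 0.09 (SE, adjusted p = 0.0029), Asns, asparagine synthetase, by 0.35, and Pycr1 and Psat1, enzymes of proline and serine synthesis, by 0.43 and 0.29.

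Immune regulators moved in both directions. Serping1, the C1 inhibitor of the complement cascade, had 22.6, 7.89, 23.3, 10.3 and 15.2 TPM in peritoneal libraries, against 77.4, 38.5, 35.1, 48 and 37.1 TPM in subcutaneous libraries, at -1.56 ± 0.30 (SE, adjusted p = 0.0046). Clu, clusterin, which blocks the terminal complement complex, was higher, by 0.75 ± 0.14 (SE, adjusted p = 0.0042). Tnfsf9, the ligand of the T cell costimulator 4-1BB, differed by -0.73 ± 0.11 (SE, adjusted p = 6.9e-04) in sorted cells and by 0.09 ± 0.15 (SE, adjusted p = 0.71) in whole tumours. Igkc, the kappa light chain of antibodies, was named after its values were seen: it had 7.95, 0.519, 5.67, 3.42 and 2.17 TPM in peritoneal libraries, against 0.118, 0, 0.363, 0 and 0 TPM in subcutaneous libraries, at 1.94 ± 0.60 (SE, adjusted p = 0.049) in sorted cells and 4.06 ± 0.65 (SE, adjusted p = 0.0015) in whole tumours. Its ranges did not overlap in sorted cells. It was the 1 called gene of 3 tested B and plasma cell markers, whose median was 0.09 and whose sum overlapped, at 12.1 to 22.2 TPM in peritoneal libraries and 10.2 to 19.3 TPM in subcutaneous libraries (two-sided exact permutation test, p = 0.341).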
